A study of Mus musculus with 8 samples.

Results

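The transcripts described here are 10 genes of the TGF-beta pathway, namely the ligand Tgfb1, the receptors Tgfbr1 and Tgfbr2, the effector Smad3, the inhibitory SMADs Smad6 and Smad7, the nuclear corepressors Ski, Skil and Tgif1, and the pseudoreceptor Bambi. They were taken by symbol from a table of 53647 mouse genes, and all 10 had enough reads to be among the 13412 genes tested. The libraries came from sorted leukemia macrophages of C57BL/6 mice. In 4 libraries (Mac) the cells had been cultured alone for 12 h, and in 4 (E-Mac) they had been co-cultured for 12 h with mesenchymal stromal cells, the fibroblast-like support cells of bone marrow. The leukemia model, the sort gate, the origin of the stromal cells and whether libraries came from separate animals are not given in the labels, so a p-value here measures the spread among the sequenced samples only, and that spread may be technical.

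TGF-beta is secreted in a latent form and, once released, binds the type II receptor Tgfbr2, which recruits and phosphorylates the type I receptor Tgfbr1. The active pair phosphorylates Smad2 and Smad3, which join Smad4 and enter the nucleus. Brakes act at each step: Bambi is a receptor-like protein without kinase activity, Smad6 and Smad7 block receptors and mark them for degradation, and Ski, Skil and Tgif1 hold SMAD complexes in a repressed state. Several of these brakes, Smad7 and Skil among them, are themselves induced by the pathway. In macrophages the pathway is known for restraining inflammatory activation and for shaping tissue-resident identity.

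Of the 10 genes, 8 were higher in E-Mac, 1 (Bambi) was lower and 1 (Tgfb1) did not pass the test, at an adjusted p under 0.05 from edgeR's quasi-likelihood test. The call rate over all genes tested was 58.3% in either direction, 29.5% higher and 28.8% lower in E-Mac. The Mac and E-Mac values were apart for 9 of the 10, as they were for 53.9% of all genes tested. The median log2 fold change of the 10 genes was 0.79, against -0.003 over all genes tested. The 10 genes and the lists below were chosen with earlier results of these data known, so such contrasts with all genes are descriptions only. The inhibitory Smad6 and the corepressors Skil and Tgif1 had the largest increases, the receptors rose by less, and the ligand and Smad3 had the smallest differences. E-Mac 2 and 4 carried the most stromal marker counts, and there several members stood apart from E-Mac 1 and 3. Without those 2 libraries all 10 genes passed, 9 higher and 1 lower. In bulk libraries fewer cells of a type and less RNA per cell cannot be told apart.

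**Figure D1:**
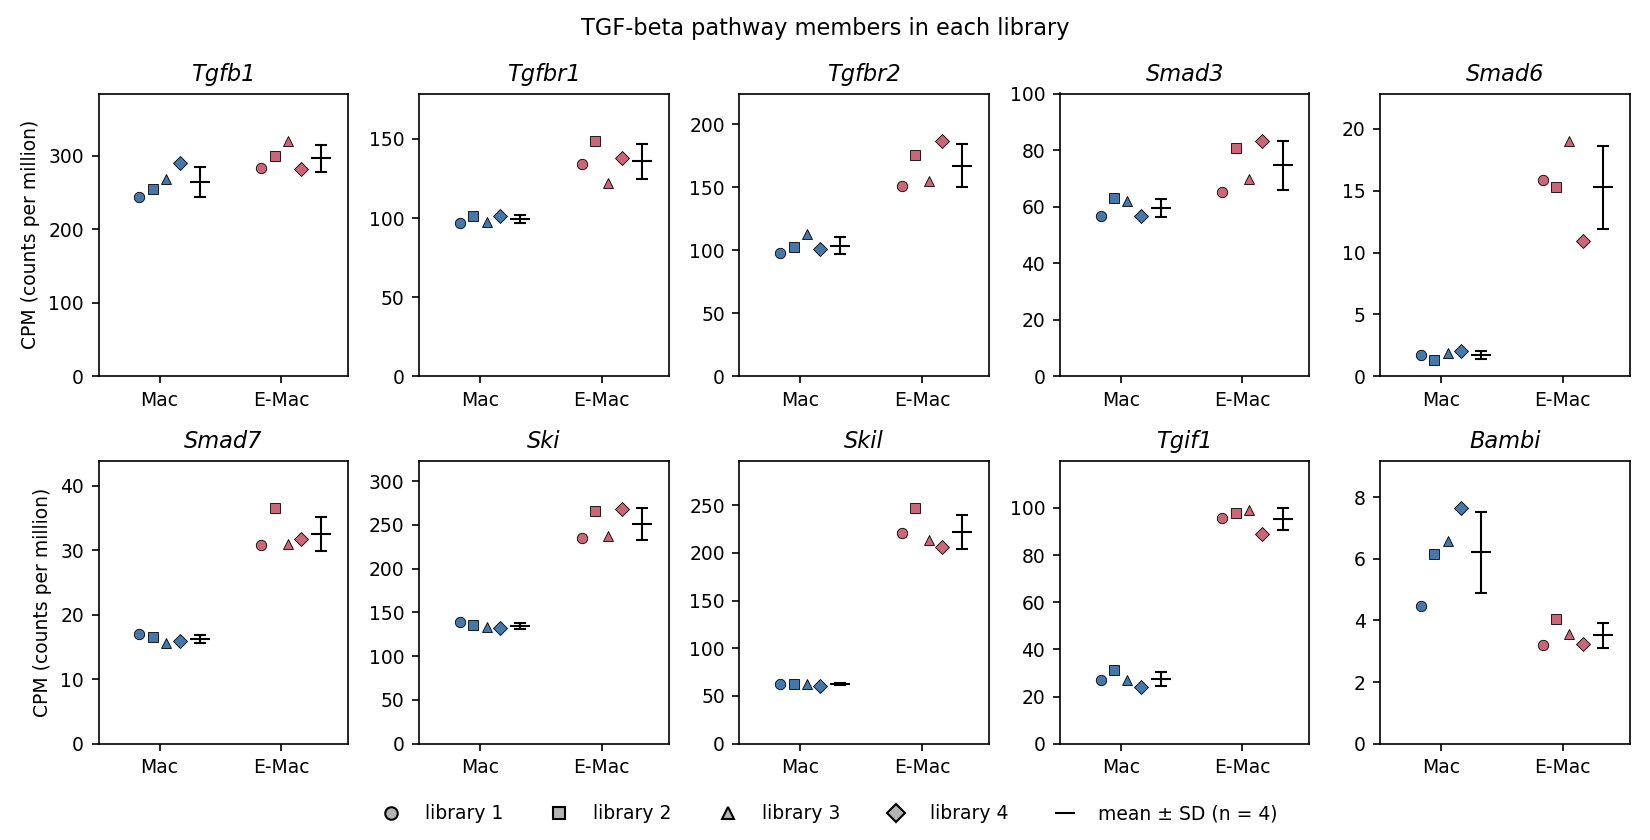
Level of each of the 10 genes in CPM (counts scaled by library size, linear axis from 0) in every Mac (blue) and E-Mac (red) library, with the marker shape giving the library number and the bars the mean ± SD of 4 libraries. Groups are apart for every gene except Tgfb1, and Bambi is the gene with lower E-Mac values.

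Total counts per library ran from 11646025 to 15740846. CPM below are counts scaled to a common library size after TMM normalisation. The macrophage label was checked against 20 core markers, of which 19 had counts in each group and Vsig4 was at 0 throughout; they summed to 14705 to 15925 CPM in Mac and 12016 to 16422 in E-Mac. The 21 granulocyte markers, all detected in both groups, summed to 37272 to 41268 CPM in Mac and 11973 to 18592 in E-Mac (exact two-sided permutation p = 0.0286, the smallest that 4 against 4 libraries allow). The 20 stromal markers summed to 66.6 to 83.9 CPM in Mac, where Col3a1, Lum, Pdgfra and Loxl1 were at 0. In E-Mac they summed to 98.7, 452, 79.3 and 492 CPM in libraries 1 to 4, with all 20 detected. The Mac sum was mostly Vcam1, at 64.6 ± 7.50 CPM, which fell to 16.2 ± 4.67 in E-Mac. Without Vcam1 the sum ranged between 10.6 and 13.7 CPM in Mac and stood at 80.4, 439, 57.8 and 481 CPM in E-Mac 1 to 4 (exact permutation p = 0.0286), so all 4 E-Mac libraries were above Mac. The collagen gene Col1a1, for one, was at 0.863 to 1.42 CPM in Mac and at 23.2, 141, 15.2 and 142 CPM in E-Mac. Values given without E-Mac 2 and 4 therefore still rest on libraries with stromal transcripts. Summed megakaryocyte markers (10 genes) lay between 137 and 153 CPM in Mac and between 213 and 289 in E-Mac, and endothelial markers (8 genes) between 80.9 and 92.6 and between 188 and 256. Single markers of both lists went the other way. Itgb3 of the megakaryocyte list fell from 96.9 to 58.0 CPM. Emcn and Cldn5 of the endothelial list had counts in Mac and 0 in E-Mac. T and NK cell markers (12 genes) lay between 9.34 and 16.2 CPM in Mac against 2.42 to 3.88 in E-Mac, and B cell markers between 227 and 246 against 114 to 190 (exact permutation p = 0.0286 for each of these 4 lists). The B cell difference rested on Ighm: without it E-Mac was higher by 5.32 CPM (exact permutation p = 0.229). The part of these cell types in the results below was not tested.

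**Figure D2:**
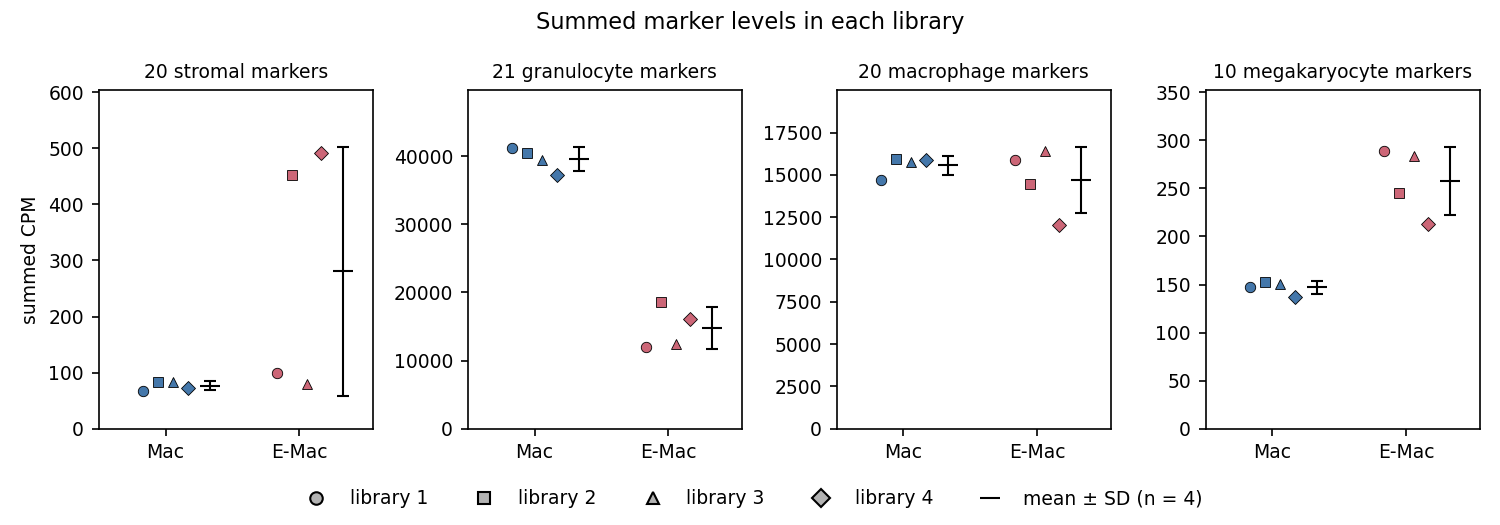
Summed CPM of 20 stromal, 21 granulocyte, 20 macrophage and 10 megakaryocyte markers in each library (linear axes from 0), with the mean ± SD of 4 libraries beside the points. Stromal sums are highest in E-Mac 2 and 4, at 452 and 492 CPM, with Vcam1 making up most of the Mac sums, and granulocyte sums are lower in all 4 E-Mac libraries.

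Tgfb1, on chromosome 7 (mm10, 25687002 to 25705077), encodes the main TGF-beta ligand of leukocytes. It stood at 244, 254, 268 and 291 CPM in Mac 1 to 4 and at 284, 299, 321 and 281 CPM in E-Mac 1 to 4. The groups overlapped, since Mac 4 lay above E-Mac 1 and E-Mac 4. The log2 fold change of 0.17 ± 0.07 (SE, n = 4 and 4) did not pass (edgeR adjusted p = 0.0724). It passed without Mac 4 (adjusted p = 0.0377), without E-Mac 4 (adjusted p = 0.0362), without both E-Mac 2 and 4 (adjusted p = 0.0104) and with no filter (adjusted p = 0.0457), and it was 0.021 with total-count scaling (adjusted p = 0.817). Levels of different genes are compared below per kilobase of exon, with all annotated exons of a gene merged. Which transcripts of a gene the cells expressed was not determined, so comparisons between genes depend on these lengths. By this measure Tgfb1 was nonetheless the most abundant of the 10 genes in both groups. It was at 52.4 ± 4.03 CPM per kb in Mac and 58.8 ± 3.57 in E-Mac (mean ± SD, n = 4).

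The type II receptor Tgfbr2 (chromosome 9, 116084293 to 116175360) rose. It was at 97.9, 102, 113 and 101 CPM in Mac 1 to 4 and at 151, 176, 155 and 187 CPM in E-Mac 1 to 4. Every E-Mac library lay above every Mac library, with E-Mac 2 and 4 the highest. The increase was 1.61-fold (log2 0.69 ± 0.08, edgeR adjusted p = 9.15e-06) and was 0.57 on the log2 scale without E-Mac 2 and 4 (adjusted p = 1.18e-08). The type I receptor Tgfbr1 (chromosome 4, 47353222 to 47414931), the kinase that activates Smad2 and Smad3, was at 96.7, 101, 97.5 and 101 CPM in Mac and at 134, 149, 122 and 138 CPM in E-Mac. Its groups were apart as well, and its 1.37-fold increase was smaller (log2 0.45 ± 0.07, adjusted p = 0.000101). Within libraries the ratio of Tgfbr2 to Tgfbr1 per kb lay between 0.798 and 0.926 in Mac and between 0.899 and 1.08 in E-Mac, ranges that overlapped.

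Smad3 (chromosome 9, 63646767 to 63757994), the effector that binds DNA in the active complex, was at 56.8, 62.9, 61.9 and 56.7 CPM in Mac and at 65.1, 80.9, 69.8 and 83.1 CPM in E-Mac. The groups did not overlap, although E-Mac 1 lay only just above Mac 2. Its log2 fold change of 0.33 ± 0.09 passed (edgeR adjusted p = 0.00537). It was 0.19 without both E-Mac 2 and 4 (adjusted p = 0.0278) and 0.18 with total-count scaling, where it did not pass (adjusted p = 0.0782). Of its partners, Smad2 averaged 70.3 ± 3.19 CPM in Mac against 72.9 ± 3.49 in E-Mac and did not pass (log2 0.05 ± 0.07, adjusted p = 0.519; -0.091 with total-count scaling). Smad4, the shared subunit of the complex, fell from 103 ± 2.0 to 80.1 ± 3.91 CPM (log2 -0.36 ± 0.06, adjusted p = 0.000251), with all 4 E-Mac libraries below all 4 Mac libraries.

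Smad6 (chromosome 9, 63953076 to 64022059) had the largest change of the 10. It is an inhibitory SMAD best known for blocking the BMP branch of the family. It held 27, 16, 30 and 33 counts in Mac 1 to 4 and 204, 222, 283 and 152 counts in E-Mac 1 to 4. In CPM these were 1.68, 1.33, 1.84 and 2.03 in Mac and 15.9, 15.3, 19.1 and 10.9 in E-Mac. The lowest E-Mac library, number 4, was still far above the highest Mac library. The increase was 8.76-fold (log2 3.13 ± 0.20, edgeR adjusted p = 2.90e-08), and 1.67% of all tested genes had a log2 fold change as high. Unlike the receptors and Smad3, Smad6 was lower in E-Mac 2 and 4 than in E-Mac 1 and 3, and leaving those libraries out gave 3.33 (adjusted p = 1.57e-14).

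The promoter of Smad6 is shown because this gene changed most and because its 300-base window, from 250 bases before to 50 after the start site in RefSeq (GRCm38.p6, chr9:64022010-64022309, minus strand), held a palindrome formed by SMAD recognition sequences. The 8-base palindrome GTCTAGAC is in capitals and spans positions -4 to 4 around the start site.
Smad6: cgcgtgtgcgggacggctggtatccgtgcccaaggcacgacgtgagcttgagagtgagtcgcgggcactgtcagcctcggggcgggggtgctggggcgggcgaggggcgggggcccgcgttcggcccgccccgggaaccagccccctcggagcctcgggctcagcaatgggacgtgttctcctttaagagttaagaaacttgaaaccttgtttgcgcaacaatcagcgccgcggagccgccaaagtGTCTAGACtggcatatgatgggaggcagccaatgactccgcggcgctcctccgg
This palindrome stood in 70 of 32851 mouse promoter windows of the same length (0.213%), and in 1 of the 12 windows of the 7 members searched. The members searched were Tgfb1, Tgfbr1, Tgfbr2, Smad3, Smad6, Ski and Tgif1. The other members were not searched, so whether their promoters hold the palindrome is not known. The shorter SMAD element CAGAC, searched on both strands, stood in 5 of those 12 windows and in 49.6% of all windows. The AP-1 motif TGANTCA and the cAMP response motif TGACGTCA stood in none of the 12, against 7.81% and 1.79% of all windows. Tgif1 has 5 annotated start sites, and CAGAC or its complement stood in 3 of their windows. The window with both orientations (chr17:70851685-70851984, minus strand) is shown with those letters in capitals.
Tgif1: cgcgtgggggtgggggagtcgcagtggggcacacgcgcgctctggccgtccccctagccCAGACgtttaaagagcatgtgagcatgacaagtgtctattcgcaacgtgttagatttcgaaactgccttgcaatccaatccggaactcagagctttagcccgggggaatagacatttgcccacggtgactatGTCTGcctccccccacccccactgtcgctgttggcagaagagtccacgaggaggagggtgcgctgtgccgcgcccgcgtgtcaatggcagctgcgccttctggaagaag
A match of letters is a description of the window and no binding was measured.

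Smad7 (chromosome 18, 75367529 to 75395935), which blocks Tgfbr1 directly and recruits ubiquitin ligases to it, was at 17.0, 16.6, 15.7 and 15.8 CPM in Mac and at 30.9, 36.5, 31.0 and 31.7 CPM in E-Mac. Both groups were tight and apart, with E-Mac 2 the highest. The increase was 2.0-fold (log2 1.0 ± 0.09, edgeR adjusted p = 9.53e-07). Smad7 rose by more than the effector it opposes: the ratio of Smad7 to Smad3 per kb lay between 0.310 and 0.367 in Mac and between 0.468 and 0.581 in E-Mac. Smad6 in turn gained on Smad7, from a ratio of 0.150 ± 0.030 in Mac to 0.668 ± 0.166 in E-Mac. Such ratios within a library do not depend on how libraries were scaled, and they are given as descriptions.

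Among the corepressors, Skil (chromosome 3, 31095058 to 31122577), which encodes SnoN, was at 62.9, 62.6, 62.6 and 60.5 CPM in Mac and at 221, 247, 213 and 206 CPM in E-Mac. The Mac libraries were nearly level and the E-Mac libraries all stood far above them. The increase was 3.57-fold (log2 1.84 ± 0.07, edgeR adjusted p = 2.16e-10), and 4.09% of tested genes had a change as high. Its paralogue Ski (chromosome 4, 155154075 to 155222592) was at 139, 135, 133 and 132 CPM in Mac and at 235, 265, 237 and 268 CPM in E-Mac. Ski also rose in 4 of 4 libraries, by 1.87-fold (log2 0.90 ± 0.07, adjusted p = 1.21e-07), with E-Mac 2 and 4 the highest. The ratio of Skil to Ski per kb went from 0.265 ± 0.004 in Mac to 0.508 ± 0.046 in E-Mac, so by this measure Ski stayed the more abundant of the pair in every library.

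Tgif1 (chromosome 17, 70844205 to 70853546), a homeodomain protein that recruits histone deacetylases to SMAD complexes, was at 27.1, 31.4, 26.8 and 24.2 CPM in Mac and at 95.8, 97.7, 99.1 and 88.8 CPM in E-Mac. The E-Mac libraries were close together and all far above Mac. The increase of 3.49-fold (log2 1.80 ± 0.08, edgeR adjusted p = 1.28e-09) was close to that of Skil. Relative to Smad3 per kb, Skil ranged between 0.569 and 0.634 in Mac libraries, and between 1.42 and 1.94 in E-Mac libraries. The same ratio for Tgif1 ranged between 0.420 and 0.491, and between 1.05 and 1.45. With merged exon lengths, both corepressors were thus below Smad3 per kb in all 4 Mac libraries and above it in all 4 E-Mac libraries. The side of 1 on which a ratio lies depends on those lengths. The related Tgif2 averaged 0.624 CPM in Mac against 0.514 in E-Mac, under the limit for testing.

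**Figure D3:**
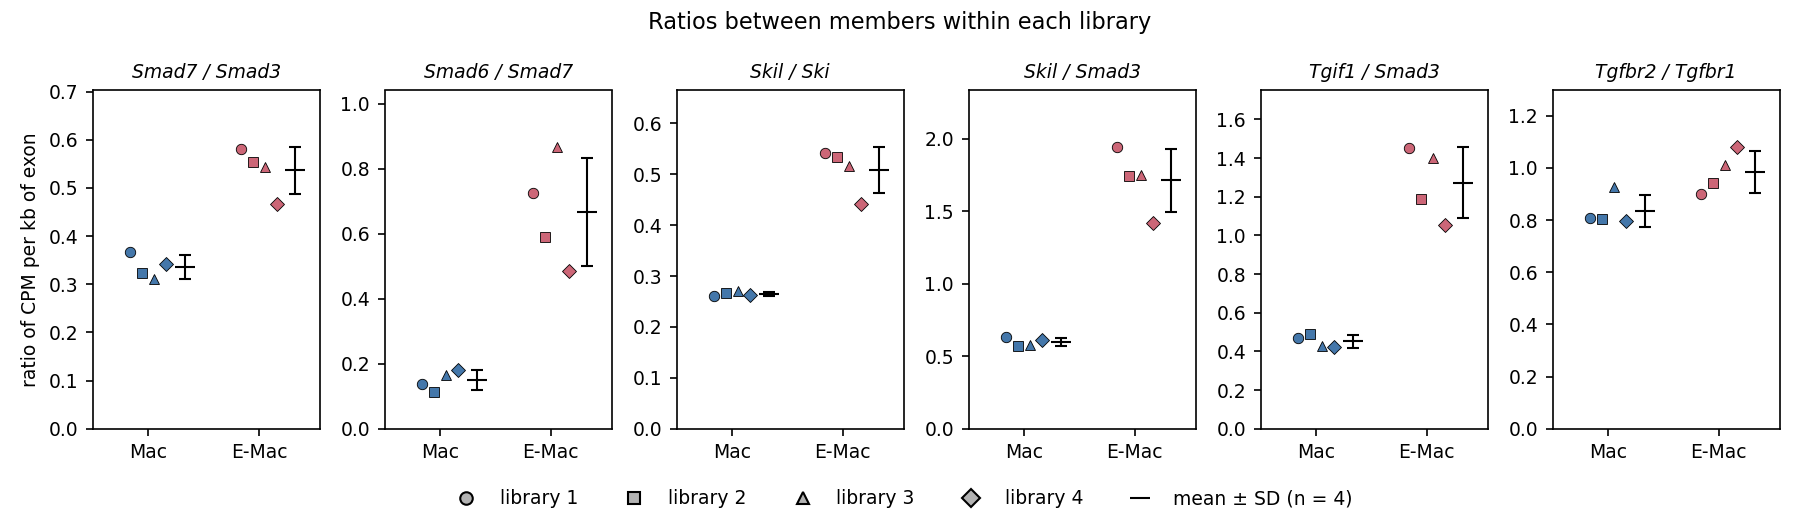
Ratios of CPM per kb of exon (all annotated exons of a gene merged) between pairs of members in each library (linear axes from 0), with the mean ± SD of 4 libraries beside the points. Skil and Tgif1 relative to Smad3 lie below 1 in the 4 Mac libraries and above 1 in the 4 E-Mac libraries, and Tgfbr2 over Tgfbr1 overlaps between groups.

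Bambi (chromosome 18, 3507923 to 3516404) was the only one of the 10 genes called lower in E-Mac, and its counts were low. It held 72, 74, 107 and 124 counts in the Mac libraries, in order, and 41, 59, 53 and 45 in the E-Mac libraries. The CPM lay between 4.47 and 7.64 in Mac and between 3.20 and 4.06 in E-Mac, close to each other at Mac 1 and E-Mac 2. The change was -0.82 ± 0.19 on the log2 scale (edgeR adjusted p = 0.00275). Its annotated processed pseudogene Bambi-ps1 (chromosome 2, 122466935 to 122467526) moved the other way, from 43, 40, 60 and 49 counts to 122, 109, 125 and 70 (log2 1.26 ± 0.21, adjusted p = 0.000191). The pseudogene aligns to Bambi over 597 columns at 88.6% identity and shares no exact word of 50 bases with it. Counted together, the Bambi and Bambi-ps1 reads gave 0.24 (edgeR adjusted p = 0.222). Adding a locus that rose to one that fell brings the sum nearer to no change however reads were assigned. The sum therefore cannot show whether reads were exchanged between these loci. Read assignment was not tested, and the fall of Bambi is uncertain. Of the other 9 members, 6 shared no 50-base word with a transcript of another gene, and Tgfbr2, Tgfb1 and Tgfbr1 shared 0.77%, 0.48% and 0.02% of their words.

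**Figure D4:**
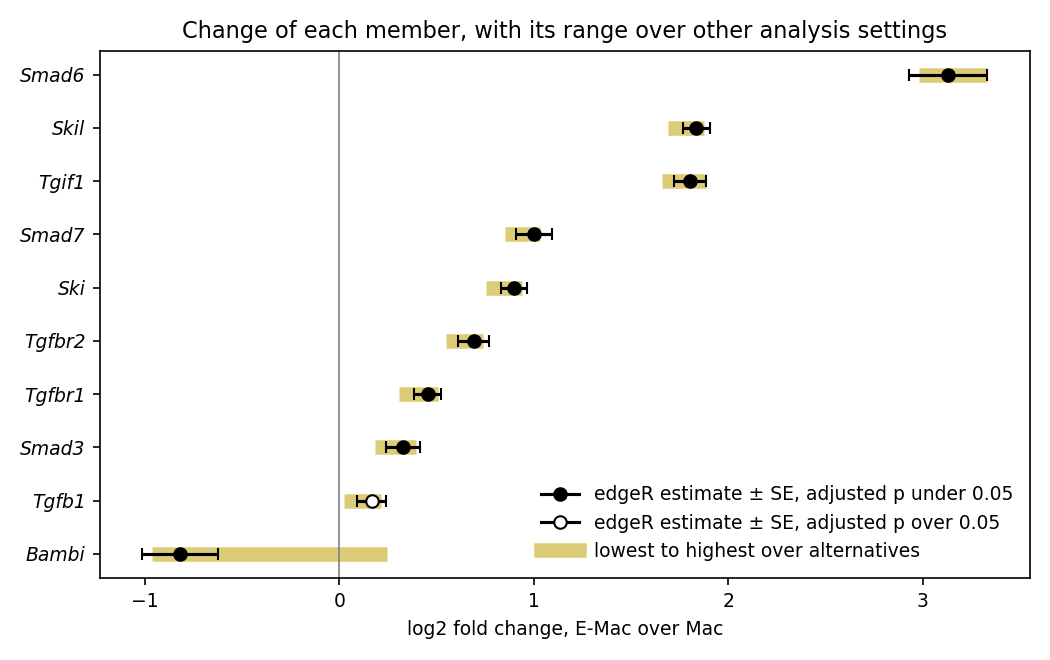
Log2 fold change, E-Mac over Mac, of the 10 genes with its standard error (n = 4 and 4), filled where the edgeR adjusted p is under 0.05, and a band from the lowest to the highest value over 19 alternative analyses. The estimates run from -0.82 for Bambi to 3.13 for Smad6, and the band of Bambi alone crosses 0, in the analysis that adds its pseudogene.

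Ordered per kb of exon, the Mac libraries held Tgfb1, Ski at 24.2 ± 0.561, Tgfbr1 at 15.2 ± 0.376, Tgfbr2 at 12.7 ± 0.810, Smad3 at 10.7 ± 0.598, Skil at 6.41 ± 0.113, Tgif1 at 4.87 ± 0.531, Smad7 at 3.60 ± 0.140, Bambi at 1.22 ± 0.260 and Smad6 at 0.537 ± 0.093 CPM per kb (mean ± SD, n = 4). In E-Mac Skil moved from place 6 to 3 in this order and Tgif1 from 7 to 6, while Ski stayed at 2. Skil reached 22.9 ± 1.83 CPM per kb, next to Tgfbr1 at 20.8 ± 1.70 and Tgfbr2 at 20.4 ± 2.09, and these 3 did not differ beyond their spread. Tgif1 followed at 17.0 ± 0.812 and Smad3 at 13.5 ± 1.56. Smad6 left the last place to Bambi, at 4.77 ± 1.04 against 0.693 ± 0.079. A set of 5 genes (Tgfbr1, Tgfbr2, Smad3, Smad7 and Ski) had both E-Mac 2 and 4 above both E-Mac 1 and 3, by a ratio of means from 1.10 for Smad7 to 1.22 for Smad3. Smad6 had both below, with a ratio of 0.749, and the other 4 genes were interleaved.

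The rest of the pathway was read from 8 lists holding 164 further genes, of which 129 were tested. Of these, 61 rose and 27 fell, so 68.2% were called against 58.3% of all genes; with total-count scaling 50 rose and 39 fell. That scaling moved the median log2 fold change of all genes by -0.144 and their calls from 3954 higher and 3860 lower to 2996 and 5018. Without E-Mac 2 and 4, 65 of 132 rose and 35 fell.

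Most ligands beside Tgfb1 were too low to test. Only 4 of 17 listed superfamily ligands were tested, and 2 rose and 1 fell (75.0% called, against 58.3% of all genes tested). Tgfb2 was too low to test (0 to 0.185 CPM in Mac and 0 to 0.791 in E-Mac), and Tgfb3 was at 1.22 ± 0.210 and 1.12 ± 0.719 CPM and did not pass (log2 -0.12 ± 0.42, edgeR adjusted p = 0.821). Gdf15, a distant stress-induced family member, rose from 0.765 ± 0.417 to 5.63 ± 1.75 CPM (log2 2.92 ± 0.35). Inhba, the subunit of activin A, fell from 40.4 ± 5.04 to 14.9 ± 4.69 CPM (log2 -1.44 ± 0.19).

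Genes that store or activate latent TGF-beta rose in 11 of 17 tested cases and fell in 2, with a median of 0.71. The share called was 76.5%, against 58.3% of all genes tested. With total-count scaling 9 rose and 2 fell (median 0.56), and without E-Mac 2 and 4, 11 rose and 2 fell (median 0.44). Without the stromal marker Fbn1, 10 of 16 rose and 2 fell (median 0.63). Thbs1, which encodes thrombospondin-1, a matricellular protein that can release active TGF-beta from its latent complex, was at 506, 947, 687 and 529 CPM in Mac and at 8463, 7687, 8129 and 6269 CPM in E-Mac. All E-Mac libraries were far above Mac (log2 3.52 ± 0.20, edgeR adjusted p = 9.78e-08). The membrane protease Mmp14 rose from 6.88 ± 1.45 to 522 ± 89.3 CPM (log2 6.26 ± 0.18), and the integrin chain Itgav, a subunit of the integrins that activate latent TGF-beta, from 59.1 ± 2.77 to 124 ± 8.01 CPM (log2 1.07 ± 0.07). Emilin1, an extracellular inhibitor of TGF-beta processing, fell (log2 -0.49 ± 0.10). Itgb3 fell from 96.9 ± 6.59 to 58.0 ± 22.9 CPM (log2 -0.74 ± 0.25, adjusted p = 0.0292). Its call was lost with no filter (adjusted p = 0.126) and on leaving out Mac 2 (0.0606), Mac 3 (0.0575), E-Mac 2 (0.0620) or else E-Mac 3 (0.0738). Leaving out both E-Mac 2 and 4 gave -1.29.

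Other receptors were split, with 3 of 11 higher, 3 lower and a median of 0.12. The share called was 54.5%, near the 58.3% of all genes tested. With total-count scaling 2 were higher and 5 lower (median -0.03), and without E-Mac 2 and 4 there were 4 of each (median -0.11). The GPI-anchored co-receptor Cd109 rose from 1.15 ± 0.539 to 9.90 ± 1.97 CPM (log2 3.06 ± 0.27) and endoglin (Eng) from 12.3 ± 1.52 to 19.2 ± 4.31 CPM (log2 0.64 ± 0.16). Nrp1 rose with overlapping groups (log2 0.49 ± 0.15, edgeR adjusted p = 0.0131), a call lost with total-count scaling (adjusted p = 0.0579). The betaglycan gene Tgfbr3 (log2 -0.85 ± 0.17) and the type I receptor Acvrl1 (log2 -0.62 ± 0.13) fell.

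SMADs and their adaptors other than the members rose in 3 of 12 cases and fell in 4, with 5 not called and a median of 0.06. The share called, 58.3%, was that of all genes tested. With total-count scaling 1 rose and 5 fell (median -0.08). Zfyve9, which encodes SARA, the endosomal anchor that presents Smad2 and Smad3 to the receptor, was lower in all 4 E-Mac libraries, averaging 9.11 ± 1.33 CPM against 36.6 ± 3.55 in Mac (log2 -2.01 ± 0.12, edgeR adjusted p = 1.54e-08). The endosomal adaptor Appl1 fell (log2 -0.51 ± 0.09), and Fkbp1a, whose product binds the type I receptor and keeps it inactive without ligand, rose (log2 0.82 ± 0.11). Traf6 (log2 0.29 ± 0.07) and Tgfbrap1 (log2 0.28 ± 0.08) rose by little, and both calls were lost with total-count scaling (adjusted p = 0.109 and 0.179), that of Tgfbrap1 also with upper-quartile factors (adjusted p = 0.0537).

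Ubiquitin ligases, deubiquitinases and phosphatases of the pathway rose in 7 of 21 cases and fell in 4, with a median of 0.12. The share called was 52.4%, below the 58.3% of all genes tested. With total-count scaling 4 rose and 10 fell (median -0.03), and without E-Mac 2 and 4, 7 rose and 8 fell. The Smad7 partner Smurf1 rose from 32.3 ± 1.76 to 45.4 ± 1.53 CPM (log2 0.49 ± 0.08, edgeR adjusted p = 0.000102). Its relative Smurf2 was at 65.8 ± 3.85 and 59.6 ± 6.44 CPM and did not pass (log2 -0.14 ± 0.08, adjusted p = 0.163), but passed as lower with total-count scaling (adjusted p = 0.0105), with upper-quartile factors (adjusted p = 0.0291) and without both E-Mac 2 and 4 (adjusted p = 0.00316). Wwp2 (log2 0.71 ± 0.06) and the deubiquitinase Usp9x (log2 0.51 ± 0.07) rose. Usp11 (log2 -1.22 ± 0.18), Ppp1r15a, a phosphatase subunit induced by stress (log2 -2.34 ± 0.32), and Ctdsp1 (log2 -0.37 ± 0.07) fell.

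Among other nuclear cofactors and decoys 8 of 21 rose and 3 fell (median 0.06). Here too 52.4% were called, against 58.3% of all genes tested. With total-count scaling 6 rose and 5 fell (median -0.08), and without E-Mac 2 and 4, 8 of 22 rose and 6 fell. The endocytic adaptor Dab2 rose from 6.50 ± 1.93 to 453 ± 144 CPM (log2 6.14 ± 0.32), Zeb2 from 328 ± 13.8 to 514 ± 46.6 CPM (log2 0.65 ± 0.08) and Runx3 from 34.4 ± 1.66 to 46.3 ± 2.0 CPM (log2 0.43 ± 0.08). Pmepa1, a SMAD-binding decoy that the pathway itself induces, held 0, 2, 8 and 9 counts in Mac and 56, 57, 65 and 40 in E-Mac (log2 3.60 ± 0.48, edgeR adjusted p = 2.51e-05). Foxo1 (log2 -0.69 ± 0.13), Tob1 (log2 -0.42 ± 0.11) and Sin3a (log2 -0.30 ± 0.09) fell.

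**Figure D5:**
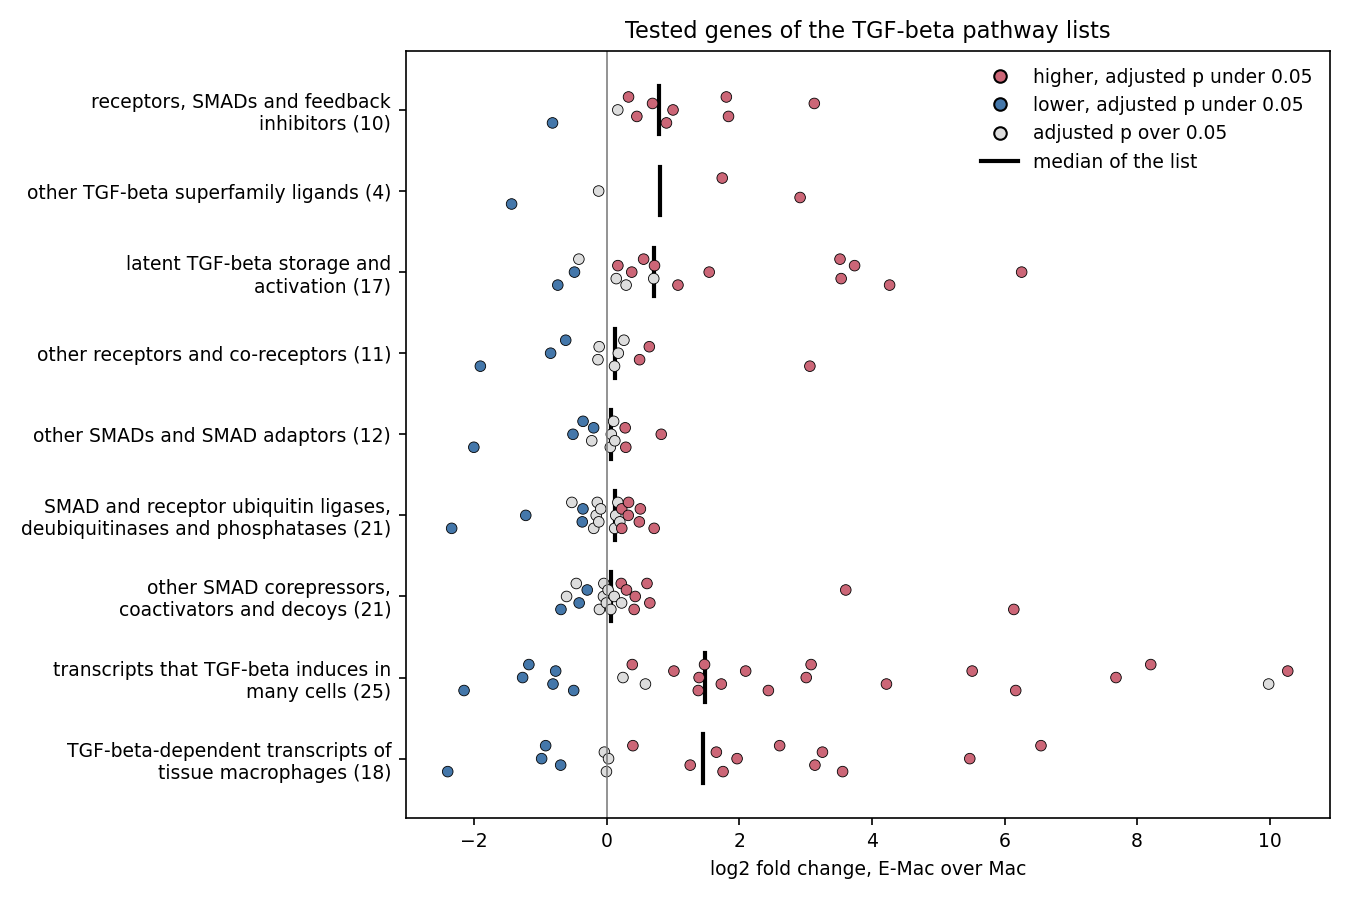
Log2 fold change, E-Mac over Mac, of each tested gene in the 10-gene set and in 8 further pathway lists, coloured by the call at an edgeR adjusted p under 0.05, with a black bar at the median of each list and the number of tested genes in brackets. Receptors, adaptors, ligases and cofactors centre near 0, and both target lists have medians of 1.47 and 1.46 with members on both sides.

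Transcripts listed as induced by TGF-beta in many cell types rose in 16 of 25 tested cases and fell in 6, so not in one direction. Their median was 1.47, and 88.0% were called, against 58.3% of all genes tested. Tgfbi, named for its induction by TGF-beta, was at 1142, 1246, 1231 and 1251 CPM in Mac and at 3534, 2989, 3543 and 2609 CPM in E-Mac. All 4 E-Mac libraries were above Mac (log2 1.38 ± 0.10, edgeR adjusted p = 9.37e-08). Tgm2 (log2 3.01 ± 0.08), Vegfa (log2 2.44 ± 0.10) and Id3 (log2 3.08 ± 0.15) rose as well. Whether TGF-beta or another signal induced any of these genes in these cells was not tested. The fibronectin gene Fn1 fell from 3443 ± 250 to 774 ± 173 CPM (log2 -2.15 ± 0.14), and so did Tsc22d1 (log2 -1.18 ± 0.10) and the early target Klf10, from 96.8 ± 3.11 to 56.7 ± 5.52 CPM (log2 -0.77 ± 0.08). Of the genes in these 8 lists, 5 tested ones are also stromal markers and all 5 rose. Without stromal markers the target list held 13 rising and 6 falling genes of 22, with a median of 1.39.

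The second target list holds transcripts linked to TGF-beta in tissue macrophages such as microglia. It rose in 11 of 18 cases and fell in 4, with a median of 1.46. Of the tested genes 83.3% were called, against 58.3% of all genes tested. With total-count scaling 10 rose and 5 fell (median 1.31). Without stromal markers 10 of 17 rose and 4 fell (median 1.26). The list does not separate transcripts that TGF-beta raises from those it restrains, so its counts give no direction of pathway activity. Spp1, which encodes osteopontin, rose from 5.99 ± 0.802 to 560 ± 202 CPM (log2 6.55 ± 0.32). The microglial marker genes Tmem119 (1.90 ± 0.516 to 11.7 ± 1.30 CPM, log2 2.61 ± 0.19) and Fcrls (0.598 ± 0.393 to 7.38 ± 1.95 CPM, log2 3.56 ± 0.36) rose but stayed low. The fractalkine receptor Cx3cr1 fell from 164 ± 7.03 to 86.7 ± 6.26 CPM (log2 -0.92 ± 0.07), and Pros1 (log2 -2.40 ± 0.17) and Apoe (log2 -0.70 ± 0.11) fell too. Sall1, a transcription factor of microglia, had 0 counts in every library.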

How the data were processed

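Sorted mouse leukemia macrophages were profiled by polyA RNA sequencing in 8 libraries, 4 per group. The authors deposited raw counts of reads per gene symbol; tools listed in the submitters' processing notes, with no version, are HISAT2, bcl2fastq, Subread, featureCounts and DESeq2, and the build is mm10. How strand and reads with several matches were handled is not stated in the labels. From these counts 26 date-like names were left out. Genes were filtered with filterByExpr (minimum count 10, minimum total 15), scaled by TMM and tested for the group in a robust quasi-likelihood fit of edgeR 4.0.16 (R 4.3.3), adjusted by Benjamini-Hochberg over 13412 genes. Standard errors are the log2 fold change divided by the square root of F. The script was tested on simulated data. Coordinates and exon lengths came from GENCODE M21, in which no other gene overlapped a member, and promoters from RefSeq GRCm38.p6. No promoter window of Smad7, Skil or Bambi was searched. Marker sums used exact permutation tests.

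The members and lists were chosen with earlier results of these data known. The text could name the members, up to 3 genes per list and direction with the smallest adjusted p and at least 5 CPM, 10 genes whatever their values, the 2 most abundant genes of a marker list, and the 3 genes most correlated with Tgfb1, Tgfbr1 or Smad7; 2 of the genes so chosen are not reported here. Alternatives were RLE, upper-quartile and total-count scaling, 2 other filters, DESeq2 1.42.0, limma-voom (limma 3.58.1), no robust option, a replicate block, a threshold of 0.01 and each library left out. Leaving out both E-Mac 2 and 4, adding Bambi-ps1 to Bambi, and leaving Vcam1 out of the stromal sum were chosen after seeing the data.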

Additional observations from a re-analysis of the deposited data

Results flagged for a closer look

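In 3 of 34 groups of 4 libraries checked (the 10 genes and 7 marker sums in each group), a single library lay far from the other 3 for its group's range. Chance marks about 1 in 20 such groups. Smad7 was at 36.5 CPM in E-Mac 2, above the other E-Mac libraries at 30.9 to 31.7. Skil was at 60.5 CPM in Mac 4, below the other Mac libraries at 62.6 to 62.9, a gap of little size beside its 206 CPM or more in E-Mac. The summed macrophage core markers were at 14705 CPM in Mac 1.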

How the results depend on the processing

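Of the 9 calls, 7 (Tgfbr1, Tgfbr2, Smad6, Smad7, Ski, Skil and Tgif1) kept direction and call under all 19 alternatives. Smad3 lost its call with total-count scaling only, Bambi turned to 0.24 with its pseudogene added, and Tgfb1 gained a call in 4. The count of members called was 8 to 10 under all alternatives, and 9 to 10 when each library was left out. Bambi was not tested with the filter at 10 CPM in 4 libraries. Tgfb3 turned to 0.12 on leaving out E-Mac 1 and 0.092 on leaving out E-Mac 3 (-0.56 for E-Mac 4), and Smad2 to -0.043 with upper-quartile factors and -0.091 with total-count scaling, none of them called; for Tgfb3 and Smad2 the cause was not tested. The macrophage marker sum differed by -871 CPM (E-Mac minus Mac, exact permutation p = 0.571), by -2386 with total-count scaling (p = 0.0286) and by 4186 without Lyz2 (p = 0.0286). The stromal sum differed by 204 CPM (exact permutation p = 0.0857) and by 252 without Vcam1 (p = 0.0286). The B cell sum, -81.6 CPM, was 5.32 without Ighm (exact permutation p = 0.229). Replicate numbers do not pair the libraries: deviations of same-numbered libraries correlated at -0.047, 0.051, 0.010 and -0.127. With the replicate block 7458 genes, 9 members and 89 further pathway genes were called, against 7814, 9 and 88. Low counts limit Smad6 in Mac (16 to 33) and Bambi.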

Other observations

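Some listed genes that did not pass the filter for testing had uneven counts, and they were chosen after their values were seen. Lrrc32, which encodes GARP, a surface anchor of latent TGF-beta, held 0 counts in each Mac library and 13, 99, 8 and 121 in E-Mac 1 to 4. Fstl1, a secreted follistatin-like protein, held 8, 2, 4 and 4 counts in Mac and 33, 270, 8 and 296 in E-Mac. Bmp1, a protease that processes collagens and latent TGF-beta binding proteins, held 9, 2, 1 and 6 counts in Mac and 18, 71, 10 and 89 in E-Mac. All 3 were highest in E-Mac 2 and 4, where the stromal sums were 452 and 492 CPM; the part of stromal RNA was not tested. Nrros, a macrophage relative of GARP that anchors latent TGF-beta, was by contrast abundant in both groups, averaging 317 CPM in Mac against 411 in E-Mac (log2 0.38, edgeR adjusted p = 0.000526).

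The genes whose log2 CPM followed a member most closely over the 8 libraries, among 8393 genes at 10 CPM or more, were Ppp1ca, Cutc and Eif4e2 for Tgfb1 (Pearson r = 0.982, 0.970 and 0.965). They were Erbin, Pip4k2c and Thrap3 for Tgfbr1 (0.994, 0.989 and 0.989), and Zc3hav1 and Pcyt1a were among them for Smad7 (0.997 for both). These are descriptions: the 8 points fall into the 2 groups, and 1686 genes had r over 0.9 with Smad7, 1139 with Tgfbr1 and 33 with Tgfb1.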
